A study of Mus musculus with 16 samples.

Results

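Genes for the enzymes that place and remove methyl groups on histone tails were followed through 5 groups of mouse J1 embryonic stem (ES) cell arrays. The members were all genes with a probe set of 1 symbol in the Kdm, Kmt, Setd, Suv39h, Ehmt, Nsd, Prmt and Smyd series or named Dot1l. This rule goes by symbol and uses no measured value, but it was set with earlier results of these data known. This gave 38 members of 12393 genes on the array, each read from its probe set with the highest mean: 19 lysine methyltransferases and SMYD or SETD genes, 6 arginine methyltransferases and 13 demethylases. Of 60 symbols listed by role, 22 had no such probe set, among them Kmt2b, Setd2, Dot1l, Suv39h1, Ehmt1 and Kdm6b, and were not analysed here. The 16 arrays held 2 shControl and 2 Tgif1 KD arrays, a knockdown arm, and 4 BirA control arrays, 4 labelled Tgif1 OE and 4 labelled Tgif2 OE, an overexpression arm. Tgif1 and Tgif2 are homeodomain repressors that act with Smad proteins and histone deacetylases. All groups were J1 ES cells grown on gelatin in 20% fetal bovine serum with leukemia inhibitory factor. The BirA control cells overexpressed BirA, a bacterial biotin ligase; whether the other cells carry it too is not stated. No label gives a promoter, a vector, a clone or a time for any group. Nor is the origin of the replicates stated, so the p-values rest on a spread between samples that could be purely technical.

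Methyl marks on histones are written by SET-domain, SMYD and PRMT enzymes and erased by the amine oxidase Kdm1a or by Jumonji-domain (JmjC) demethylases. Methylated H3K4 marks promoters and enhancers, H3K36 gene bodies, H3K27 and H3K9 silenced genes and heterochromatin, and H4K20 replication control and compact chromatin. The writers use S-adenosylmethionine, and the JmjC erasers use 2-oxoglutarate and oxygen, so both classes draw on metabolism. In ES cells, H3K9 demethylases such as Kdm4c and methyltransferases such as Setdb1 and Ehmt2 are known for roles in self-renewal and in silencing of lineage genes and retroelements.

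The 4 members that passed the test in both Tgif1 comparisons, Kdm2b, Kdm4c, Kdm8 and Smyd2, are shown by their promoter sequence. The sequences are the 250 bases before a RefSeq start on GRCm38.p6, 5′ to 3′ on the gene's strand, with each TGTCA or TGACA, the core of the TGIF site on either strand, in capitals. Where a gene had several starts (4 for Kdm2b, 2 for Kdm4c), the window with most CpG dinucleotides was taken.
Kdm2b, chr5:122900351-122900600, minus strand: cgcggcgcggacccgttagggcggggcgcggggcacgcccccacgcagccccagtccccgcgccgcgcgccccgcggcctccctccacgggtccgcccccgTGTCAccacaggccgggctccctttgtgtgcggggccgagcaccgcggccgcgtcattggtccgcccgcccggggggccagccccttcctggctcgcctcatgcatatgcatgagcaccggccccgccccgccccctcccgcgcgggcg
Kdm4c, chr4:74251629-74251878, plus strand: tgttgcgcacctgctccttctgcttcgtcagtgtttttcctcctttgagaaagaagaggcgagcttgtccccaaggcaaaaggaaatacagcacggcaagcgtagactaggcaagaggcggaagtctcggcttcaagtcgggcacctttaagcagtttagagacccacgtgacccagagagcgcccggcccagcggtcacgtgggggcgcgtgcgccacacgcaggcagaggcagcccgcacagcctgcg
Kdm8, chr7:125444370-125444619, plus strand: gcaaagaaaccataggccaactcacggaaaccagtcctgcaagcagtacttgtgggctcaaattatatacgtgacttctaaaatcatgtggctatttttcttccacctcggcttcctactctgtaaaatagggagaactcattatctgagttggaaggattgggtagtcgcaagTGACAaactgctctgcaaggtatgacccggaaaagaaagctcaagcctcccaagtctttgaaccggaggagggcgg
Smyd2, chr1:189922292-189922541, minus strand: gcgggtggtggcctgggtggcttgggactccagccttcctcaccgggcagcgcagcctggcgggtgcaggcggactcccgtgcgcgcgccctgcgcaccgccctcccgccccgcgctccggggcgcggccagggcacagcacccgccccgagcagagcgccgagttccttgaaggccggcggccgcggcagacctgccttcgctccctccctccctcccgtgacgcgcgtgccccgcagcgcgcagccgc
Of these windows, those of Kdm2b and Kdm8 hold 1 TGTCA core each, at positions -149 and -76 from the start, and those of Kdm4c and Smyd2 hold 0. The other RefSeq window of Kdm4c, which has 0 CpG dinucleotides and is not shown, holds 1 TGTCA core, at position -47, and Kdm4c is counted below by it. None of the 4 windows holds the longer CTGTCA or its complement TGACAG. Across all members, 33 of 38 had a RefSeq promoter: 5 of the 33 (15.2%) held CTGTCA and 12 (36.4%) TGTCA, which every CTGTCA contains, in a window of this length. Over 27025 genes the shares were 18.0% and 43.7%, and per window over 32851 promoters they were 15.9% and 40.0%. The promoters of the members had a median GC content of 60.4% and 18.5 CpG dinucleotides, against 52.4% and 6 over all promoters. A match is only a string of letters in this window.

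Tgif1 itself stood at 7.29 log2 units on the Tgif1 KD arrays and 10.69 on shControl, which left 9.51% of the control signal. Tgif2 read 9.84 on Tgif1 KD and 9.04 on shControl, a rise of 0.81 (limma, adjusted p = 1.6e-05). What part the rise of Tgif2 had in the knockdown results was not tested. The Tgif1 probe set read 10.12 on the arrays labelled Tgif1 OE and 10.69 on BirA control. Tgif2 also read lower there, at 8.81 against 9.26 (-0.45, adjusted p = 1.86e-04). On the arrays labelled Tgif2 OE, Tgif1 read 10.27, also below BirA control (-0.42 as deposited, adjusted p = 4.57e-04). Tgif2 read 9.37 on the arrays labelled Tgif2 OE and 9.26 on BirA control (adjusted p = 0.208). Whether either probe set covers the introduced transcript is not given in the sources used here, so these 2 groups are called by their labels. The 10 ES cell markers averaged 12.24 to 12.25 on shControl and 12.54 to 12.56 on Tgif1 KD (2 called higher, 0 lower). In the overexpression arm they averaged 12.11 to 12.25 on BirA control, 11.77 to 12 under the Tgif1 OE label (0 higher, 6 lower, led by Esrrb at -1.08 and Nanog at -0.69) and 12.04 to 12.30 under the Tgif2 OE label (2 higher, 1 lower). All 10 had group means of 9.40 or more, the level of Esrrb on the arrays labelled Tgif1 OE. In the same arm, 12 fibroblast markers averaged 5.07 to 5.32 on BirA control, 5.59 to 5.99 under the Tgif1 OE label (5 called higher, 1 lower) and 5.49 to 5.90 under the Tgif2 OE label (6 higher, 0 lower). The widest gaps were those of Tagln, at group means of 7.01, 10.50 and 9.59 in this order, and Acta2 (5.66, 7.41 and 7.32). Others moved little or fell under the Tgif1 OE label, such as Pdgfra (3.67, 3.62 and 3.69) and Vim (10.33, 9.99 and 10.73). The 8 trophectoderm markers averaged 6.13 to 6.26, 6.74 to 7.17 (3 higher, 1 lower) and 6.58 to 7.19 (6 higher, 1 lower). Here the widest gaps were those of the keratins Krt8 (8.05, 10.84 and 9.86) and Krt18 (7.63, 10.49 and 9.77), while Elf5 (3.81, 3.78 and 3.99) and Hand1 (6.35, 6.26 and 5.83) did not follow. The 8 primitive endoderm markers averaged 5.45 to 5.46 on shControl and 5.89 to 5.91 on Tgif1 KD (4 higher, 0 lower), and the 7 blood markers 4.89 to 5.28 on all arrays. Of the endoderm markers, the collagens Col4a1 (7.40 and 8.77) and Col4a2 (5.34 and 6.47) differed most between shControl and Tgif1 KD. Gata4 (4.27 and 4.08) and Dab2 (4.84 and 4.56) lay lower on Tgif1 KD. Of all genes, 12.5% were called higher and 12.9% lower on knockdown, and 11.4% and 9.51% under the Tgif1 OE label. Under the Tgif2 OE label the shares were 28.7% and 6.69%, and the marker values are as deposited. The median change there was 0.01 for ES cell, 0.31 for fibroblast and 0.51 for trophectoderm markers, beside 0.12 for all genes. In bulk RNA, fewer cells of a type and less RNA per cell cannot be told apart, and the part of these markers in the results that follow was not tested. In the overexpression arm, replicates 1 and 2 of a group lay closer to each other than to replicates 3 and 4 (SD of the gene differences 0.123 to 0.182 within these pairs and 0.246 to 0.298 across them), so results there are also given within each pair.

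The first question was how these genes differed on Tgif1 knockdown, where Tgif2 also rose. With Tgif1 knocked down, 13 of the 38 members passed the threshold (limma, Benjamini-Hochberg adjusted p under 0.05 over all genes), 6 higher and 7 lower. That is 34.2% of the members, where 25.4% of all genes passed (12.5% higher and 12.9% lower). The changes were moderate, from -0.68 to 0.59 on the log2 scale, and 0 members changed by more than 1 log2 unit, as 3.19% of all genes did. The median size of change was 0.23 for the members and 0.19 for all genes. Groups did not overlap for 28 members, a state that 69.2% of all genes share with 2 arrays a group.

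**Figure D1:**
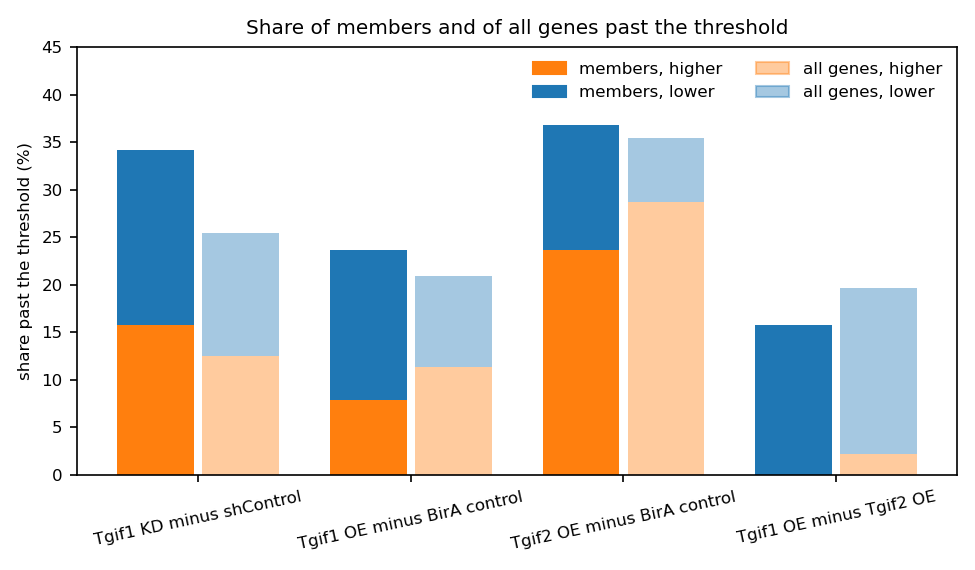
Share (%) of the 38 members (solid bars) and of all 12393 genes (pale bars) past an adjusted p of 0.05 in each comparison, split into higher (orange) and lower (blue). The member share lies above the share of all genes in the knockdown (34.2% against 25.4%), near it in both overexpression comparisons, and below it between the overexpression groups (15.8% against 19.7%).

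Of the 8 measured genes listed as H3K4 writers, a list that takes in MLL family members such as Kmt2e, 2 rose and 1 fell on knockdown. Kmt2e, an MLL family protein that binds methylated H3K4, read 7.51 and 7.67 on shControl and 8.20 and 8.16 on Tgif1 KD, a rise of 0.59 ± 0.11 (SE; adjusted p = 8.38e-04) or 1.5-fold. Its other probe set differed by 0.41 in the same direction. Smyd1, a methyltransferase best known from heart and skeletal muscle, read 5.49 and 5.39 on shControl and 6.12 and 5.91 on Tgif1 KD. Its rise of 0.57 ± 0.13 (adjusted p = 0.00541) was weaker on its 2 other probe sets, at 0.15 and 0.06. Smyd2, which methylates H3K4, H3K36 and non-histone proteins such as p53, read 9.69 and 9.62 on shControl and 9.06 and 9.02 on Tgif1 KD, a fall to 65.2% of the control (-0.62 ± 0.20, adjusted p = 0.0353). For these 3 genes every knockdown array lay on 1 side of both controls.

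Of the remaining writers, the largest fall was that of Setd4, a lysine methyltransferase linked to quiescent progenitor cells. It read 8.27 and 8.38 on shControl and 7.71 and 7.59 on Tgif1 KD, 62.5% of the control (-0.68 ± 0.15, adjusted p = 0.00434), and its 2 other probe sets differed by -0.41 and -0.40. Kmt5a, the enzyme that monomethylates H4K20, fell by 0.35 ± 0.07 (adjusted p = 0.00211). The H3K9 writers split: Suv39h2, which trimethylates H3K9 in heterochromatin, rose by 0.28 ± 0.07 (adjusted p = 0.00868), and Setdb1, which silences retroelements, fell by 0.29 ± 0.09 (adjusted p = 0.0253). Ehmt2, the other measured H3K9 writer, differed by -0.22 ± 0.17 (adjusted p = 0.383). Of the 6 arginine methyltransferases, Prmt1, the main source of asymmetric dimethylarginine, fell by 0.19 ± 0.06 (adjusted p = 0.0347), and the other 5 did not pass.

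The genes listed as H3K9 and H3K36 demethylases held the most calls of any role, 3 higher and 2 lower of 7. Kdm4c, an H3K9 and H3K36 demethylase, read 8.24 and 8.17 on shControl and 8.70 and 8.57 on Tgif1 KD, a rise of 0.43 ± 0.08 (adjusted p = 0.00108). Kdm2b, which binds unmethylated CpG islands and brings variant Polycomb complexes to them, rose by 0.34 ± 0.08 (adjusted p = 0.00384), and the H3K9 demethylase Kdm3b by 0.25 ± 0.09 (adjusted p = 0.0392). Kdm7a, an H3K9 and H3K27 demethylase, read 4.29 and 4.29 on shControl and 3.72 and 3.69 on Tgif1 KD (-0.58 ± 0.15, adjusted p = 0.00989). It is 1 of 4 members, with Kdm5d, Nsd1 and Setd7, whose mean lies under 5.37, the limit of the dimmest 33.3% of genes, where a probe set may read little but background. Kdm8, a JmjC protein described as an H3K36 demethylase and as an arginine hydroxylase, fell by 0.41 ± 0.12 (adjusted p = 0.0182). None of the 5 measured H3K4 demethylases passed in limma, nor did Kdm6a, the H3K27 demethylase on the X chromosome (-0.03 ± 0.19, adjusted p = 0.941). Over all 38 members, 16 had an unadjusted p under 0.05 in limma, a level at which the share of all genes was not counted.

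With 2 arrays a group, each array weighed on these calls. Leaving out any 1 of the 4 arrays left 1 in its group, and fewer members and a smaller share of all genes then passed. Kdm2b, Kdm4c, Kmt2e, Kmt5a and Setd4 stayed past the threshold without any 1 of the 4 arrays, while Kdm3b, Prmt1 and Smyd2 missed it without any 1 of them (adjusted p 0.0515 to 0.254, 0.0788 to 0.189 and 0.107 to 0.143). Kdm7a missed it without shControl replicate 1, shControl replicate 2 or Tgif1 KD replicate 2 (0.0527 to 0.0582), and Setdb1 without the same 3 arrays (0.0673 to 0.172). Kdm8 missed it without shControl replicate 2, Tgif1 KD replicate 1 or Tgif1 KD replicate 2 (0.0794 to 0.195). Smyd1 and Suv39h2 missed it without shControl replicate 2 (0.0512 and 0.123) or Tgif1 KD replicate 1 (0.0691 and 0.0745).

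**Figure D2:**
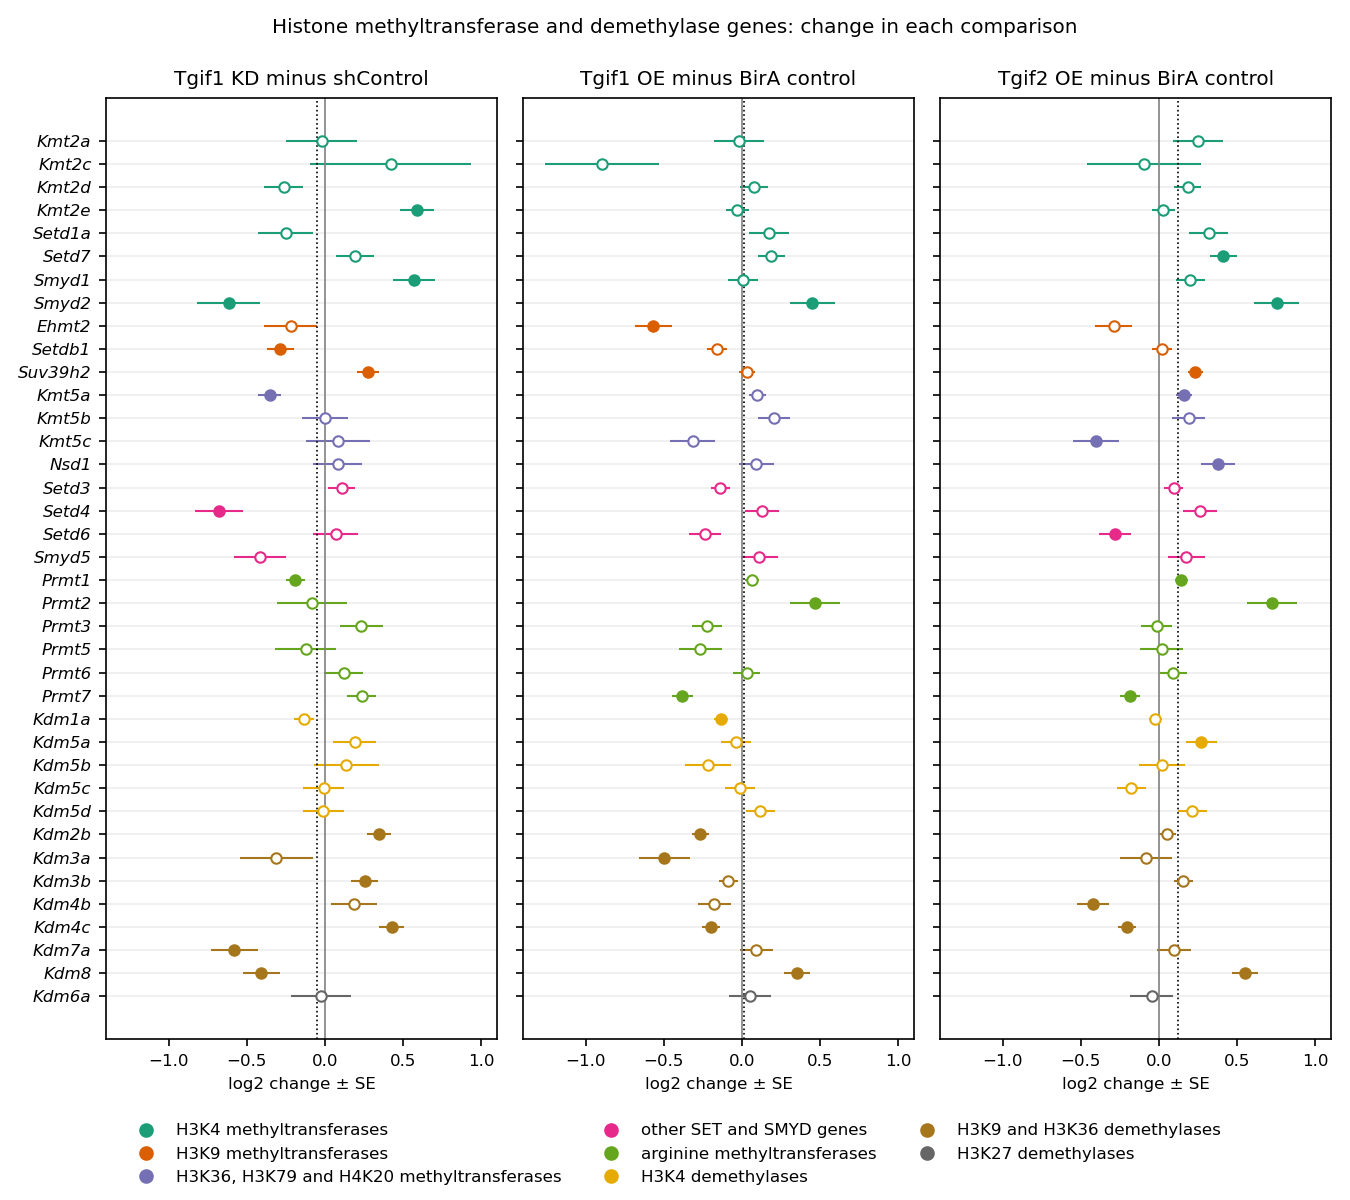
Log2 change ± SE of each of the 38 members, coloured by role, in the comparisons of Tgif1 KD with shControl and of the arrays labelled Tgif1 OE and Tgif2 OE with BirA control. Filled points passed an adjusted p of 0.05 (13, 9 and 14 members), open points did not, and the dotted line marks the median change of all genes (-0.05, 0.01 and 0.12).

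On the arrays labelled Tgif1 OE, 9 of the 38 members passed against BirA control, 3 higher and 6 lower. That is 23.7% of the members, near the 20.9% of all genes (11.4% higher and 9.51% lower). Demethylases, 13 of the 38 members, made up 4 of the 6 that fell and 1 of the 3 that rose. Groups did not overlap for 13 members, and for 23.1% of all genes. With the replicate number as a block, 16 members passed, 4 higher and 12 lower, among them all 9, where 28.6% of all genes passed. Within replicates 1 and 2 alone 15 passed (26.2% of all genes), and within replicates 3 and 4 alone 11 (24.8% of all genes).

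Of the 6 members called lower in the fit without the block, Ehmt2 fell most; Kmt2c, which differed by more and passed with the block, is described after them. Ehmt2, with Ehmt1, places the bulk of H3K9 dimethylation in euchromatin. It read 9.12, 9.34, 8.76 and 8.77 on BirA control and 8.58, 8.50, 8.31 and 8.33 on the arrays labelled Tgif1 OE. All 4 of the latter lay below all controls, and the change was -0.57 ± 0.12 (67.5% of control, adjusted p = 0.00293), with -0.69 in replicates 1 and 2 and -0.44 in replicates 3 and 4. Prmt7, which monomethylates arginine, read 9.63, 9.60, 9.76 and 9.64 on control and 9.37, 9.35, 9.18 and 9.21 on the arrays labelled Tgif1 OE. Again the groups did not overlap. The fall of 0.38 ± 0.07 (adjusted p = 6.95e-04) was the only 1 of the 9 calls that held under all 20 alternatives run, and the dimmer probe set of Prmt7 differed by -0.05. Kdm3a, an H3K9 demethylase induced by hypoxia, read 10.61, 10.71, 10.10 and 10.14 on control and 10.03, 10.03, 9.77 and 9.74 on the arrays labelled Tgif1 OE (-0.50 ± 0.17, adjusted p = 0.0465), with no overlap. Kdm2b fell by 0.27 ± 0.06 (adjusted p = 0.00266), Kdm4c by 0.20 ± 0.06 (adjusted p = 0.0221) and Kdm1a, the H3K4 demethylase of the CoREST complex, by 0.13 ± 0.04 (adjusted p = 0.0457).

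The 3 that rose were Prmt2, Smyd2 and Kdm8. Prmt2, an arginine methyltransferase known as a coactivator of nuclear receptors, read 7.70, 7.48, 8.04 and 7.99 on control and 8.10, 8.02, 8.52 and 8.43 on the arrays labelled Tgif1 OE, so that replicate 2 of the latter lay below the highest control (0.47 ± 0.16, adjusted p = 0.0486). The change was 0.47 in replicates 1 and 2 and 0.46 in replicates 3 and 4. Smyd2 read 9.15, 9.09, 9.67 and 9.73 on control and 9.80, 9.75, 9.96 and 9.94 on the arrays labelled Tgif1 OE. It rose by 0.45 ± 0.14 (adjusted p = 0.0359), with 0.65 in the first pair of replicates and 0.25 in the second, and the groups did not overlap. Kdm8 read 6.10, 6.15, 6.33 and 6.06 on control and 6.73, 6.43, 6.48 and 6.40 on the arrays labelled Tgif1 OE (0.35 ± 0.08, adjusted p = 0.00667), and the groups did not overlap.

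With single arrays left out, 4 to 8 members were called, where 16.6% to 19.1% of all genes were. Fewest were called without BirA control replicate 2 (4), and 5 each without BirA control replicate 1 or replicate 3 or 4 labelled Tgif1 OE. Kdm1a missed the threshold without any 1 of the 8 arrays (adjusted p 0.0548 to 0.120) and Kdm3a without BirA control replicate 1 or 2 or any 1 array labelled Tgif1 OE (0.0540 to 0.142). Smyd2 missed it without BirA control replicate 1 or 2 or replicate 1, 3 or 4 labelled Tgif1 OE (0.0537 to 0.115), Prmt2 without BirA control replicate 1 or 2 or replicate 3 or 4 labelled Tgif1 OE (0.113 to 0.149), and Kdm4c without BirA control replicate 2 or 4 or replicate 2 labelled Tgif1 OE (0.0555 to 0.0669). With replicates 1 and 2 and replicates 3 and 4 as a random block, Ehmt2, Kdm2b and Prmt7 were the 3 members called (11.5% of all genes).

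**Figure D3:**
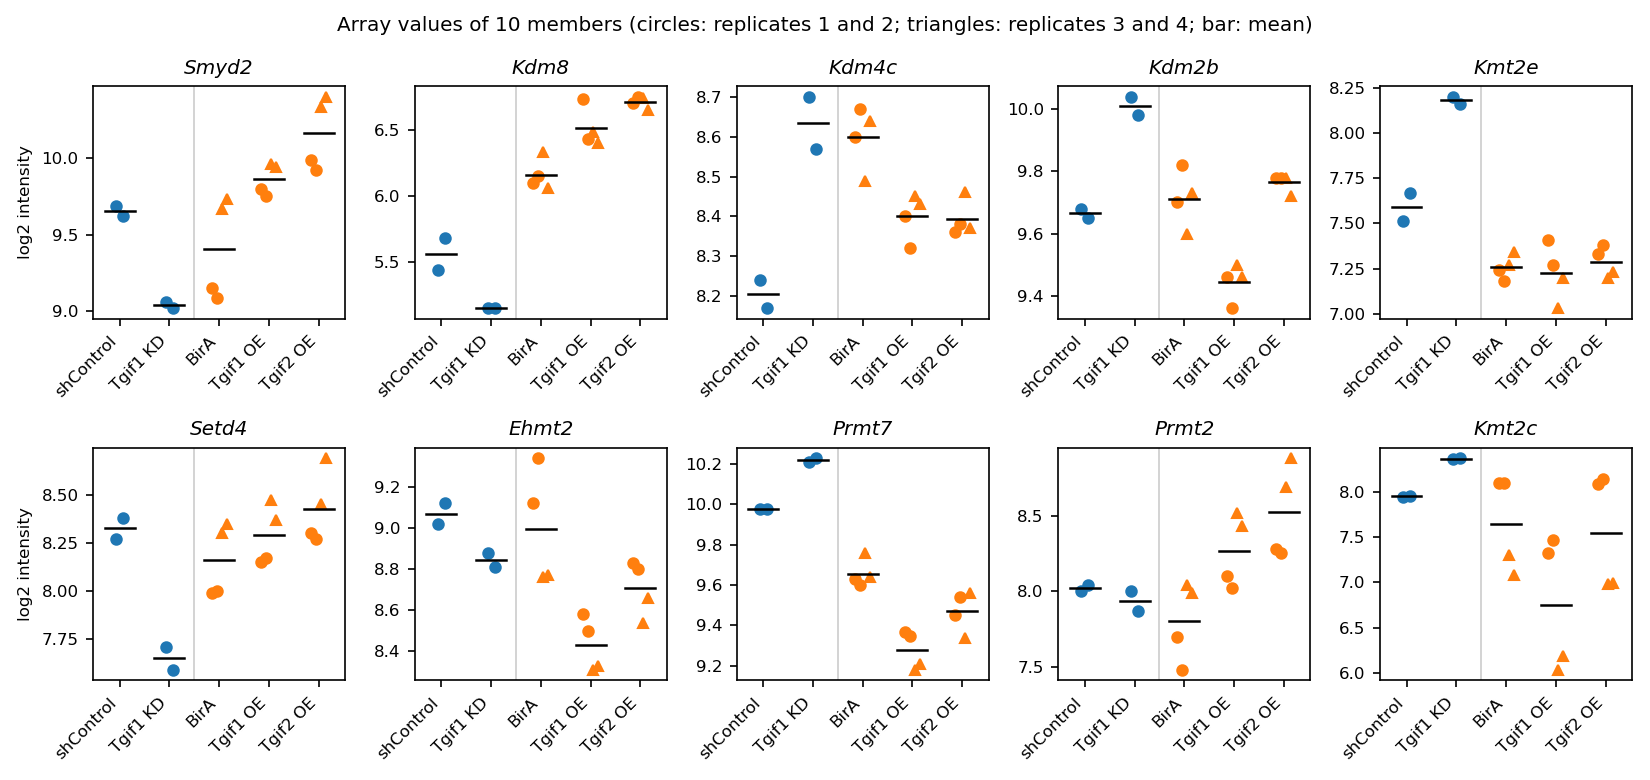
Log2 intensity of 10 members on each of the 16 arrays, with the knockdown arm in blue and the overexpression arm in orange, circles for replicates 1 and 2, triangles for replicates 3 and 4, and a bar at the group mean. Axes differ between genes; the group means of Smyd2 and Kdm8 are lower on Tgif1 KD than on shControl and highest on the arrays labelled Tgif2 OE, and Kmt2c falls between replicates 1-2 and 3-4 in each overexpression group.

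Kmt2c, an MLL family writer of H3K4 monomethylation at enhancers, had the largest difference of any member and is described here because of it, chosen after its values were seen. It read 8.10, 8.10, 7.30 and 7.08 on BirA control, 7.33, 7.47, 6.03 and 6.18 on the arrays labelled Tgif1 OE and 8.09, 8.15, 6.98 and 6.99 on those labelled Tgif2 OE. Replicates 3 and 4 lay below replicates 1 and 2 in every group, by 0.91, 1.29 and 1.14, where the median size of that gap over all genes was 0.15, 0.13 and 0.14. Across all replicates its difference between the arrays labelled Tgif1 OE and BirA control was -0.89 ± 0.36 and did not pass (adjusted p = 0.102). Within replicates 1 and 2 it was -0.70 (adjusted p = 2.08e-04), within replicates 3 and 4 it was -1.09 (adjusted p = 3.68e-05), and with the replicate number as a block it passed (adjusted p = 2.04e-05). Its difference on the arrays labelled Tgif2 OE was -0.10 ± 0.36 (adjusted p = 0.856). On Tgif1 KD it read 8.37 and 8.38, and on shControl 7.95 and 7.96, a difference of 0.42 ± 0.52 (adjusted p = 0.61) with the spread taken from all 5 groups. The fit pools the spread over groups, so the gap between replicates 1-2 and 3-4 enters the SE of this gene also in the knockdown arm. The same knockdown difference passed with the replicate number as a block (adjusted p = 0.0169) and in a fit of the 4 knockdown-arm arrays alone (adjusted p = 0.00713).

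The other members that passed against BirA control on the arrays labelled Tgif1 OE with the block alone, named after their values were seen, were Kdm5b, an H3K4 demethylase (-0.22, adjusted p = 0.0222), Kmt5c, an H4K20 methyltransferase of heterochromatin (-0.32, adjusted p = 0.0468), and Setd6 (-0.24, adjusted p = 0.0165), which methylates RelA. To these come Prmt3, which methylates a ribosomal protein (-0.22, adjusted p = 0.00781), Prmt5, the main symmetric arginine methyltransferase (-0.27, adjusted p = 0.0231), and Setd1a, an H3K4 trimethylase of the COMPASS complex (0.17, adjusted p = 0.0299). Without the block their adjusted p ran from 0.116 for Setd6 to 0.392 for Setd1a. Prmt3 and Prmt5 also passed within each pair of replicates. None of these 6 passed in limma when each pair was averaged to 1 value and the pair kept as a block, where Kmt2c and 7 of the 9 members called without the block did. Changes within the pairs had the same sign for 29 of the 38 members, a count for which the share of all genes was not taken.

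**Figure D4:**
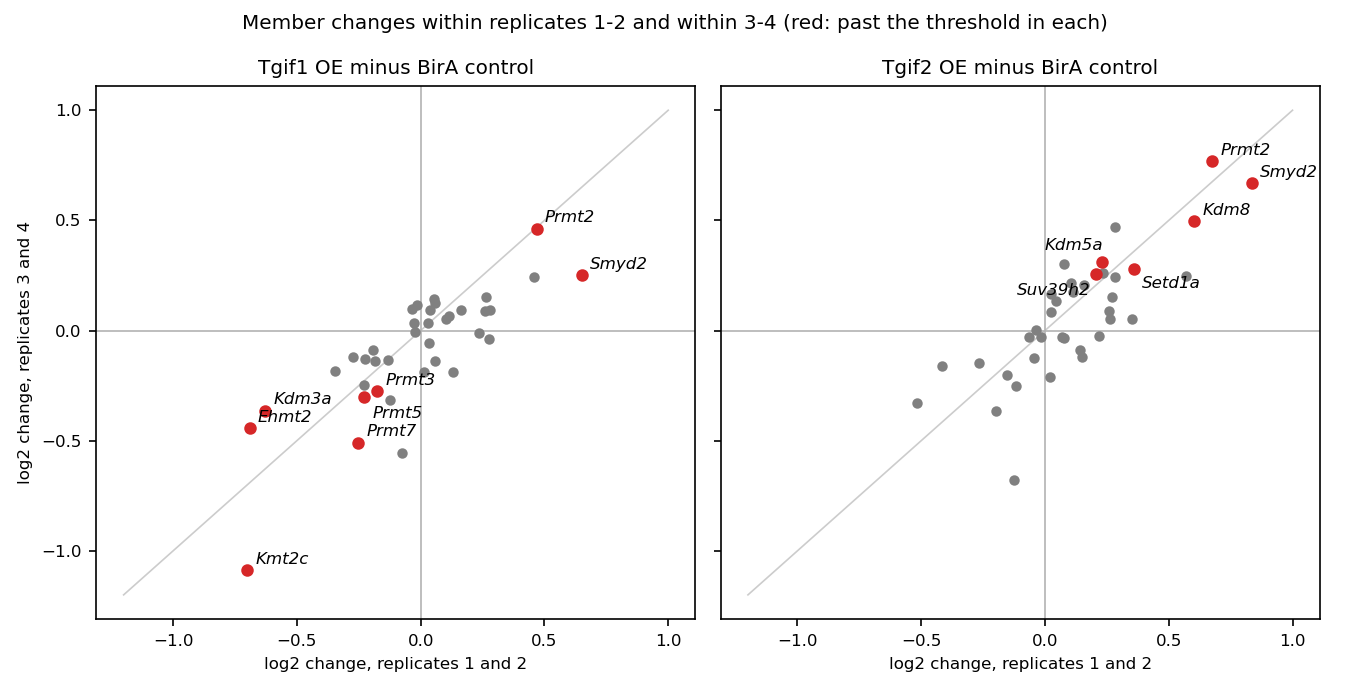
Log2 change of each member within replicates 1 and 2 (x axis) against that within replicates 3 and 4 (y axis), for the arrays labelled Tgif1 OE (left) and Tgif2 OE (right) against BirA control; the grey diagonal marks equal change. Red points passed an adjusted p of 0.05 within each pair: 8 members on the left, with Kmt2c at -0.70 and -1.09, and 6 on the right, with Smyd2 at 0.83 and 0.67. Of all genes, 26.2% and 24.8% passed in the single pairs on the left and 37.5% and 36.5% on the right. The share of all genes passing in both pairs was not counted.

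The knockdown and overexpression arms share no arrays, so the Tgif1 comparisons could be set against each other. In both, 4 of the 38 members passed (10.5%, where 8.68% of all genes did), and all 4 moved in opposite directions, as 5.87% of all genes did, or 67.7% of the 1076 genes that passed in both: Kdm2b and Kdm4c rose on knockdown and fell on the arrays labelled Tgif1 OE, and Kdm8 and Smyd2 did the reverse. Over all members, 26 of 38 (68.4%) had opposite signs in the 2 comparisons, beside 55.1% of all genes, and Pearson's r across genes was -0.39 for the members and -0.14 for all genes. Genes are not independent replicates, so these are given as a description. The direction of overexpression rests on the label, since Tgif1 itself read lower in both comparisons.

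The difference between the knockdown effect and the effect on the arrays labelled Tgif1 OE was tested directly. It passed for 13 members (34.2%, where 27.6% of all genes passed), 7 positive (13% of all genes) and 6 negative (14.6% of all genes). Of these, Smyd2 had the largest, -1.07 ± 0.25 (adjusted p = 0.00451), followed by Setd4 at -0.81 ± 0.19 (adjusted p = 0.0049) and Kdm8 at -0.76 ± 0.14 (adjusted p = 9.99e-04). On the positive side stood Kdm4c at 0.62 ± 0.10 (adjusted p = 2.27e-04), Kmt2e at 0.62 ± 0.13 (adjusted p = 0.00255), Prmt7 at 0.62 ± 0.11 (adjusted p = 7.98e-04) and Kdm2b at 0.61 ± 0.09 (adjusted p = 1.92e-04). Prmt7 passed here although its rise of 0.24 ± 0.09 on knockdown did not (adjusted p = 0.0763), and its dimmer probe set differed on knockdown by -0.21. The other 6 were Smyd1 (0.57), Kdm3b (0.34) and Suv39h2 (0.24) on the positive side and Kdm7a (-0.67), Kmt5a (-0.45) and Prmt1 (-0.25) on the negative. With the replicate number as a block 20 members passed, where 36.3% of all genes did, Kmt2c among them (1.31, adjusted p = 3.91e-05). Suv39h2 missed the threshold without any 1 of the 12 arrays except shControl replicate 1 and BirA control replicates 2 and 3 (adjusted p 0.0603 to 0.253), Kdm3b without shControl replicate 1 or 2 or Tgif1 KD replicate 1 (0.0585 to 0.128), and Prmt1 and Smyd1 without shControl replicate 2 (0.0985 and 0.0824) or Tgif1 KD replicate 1 (0.0859 and 0.107).

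**Figure D5:**
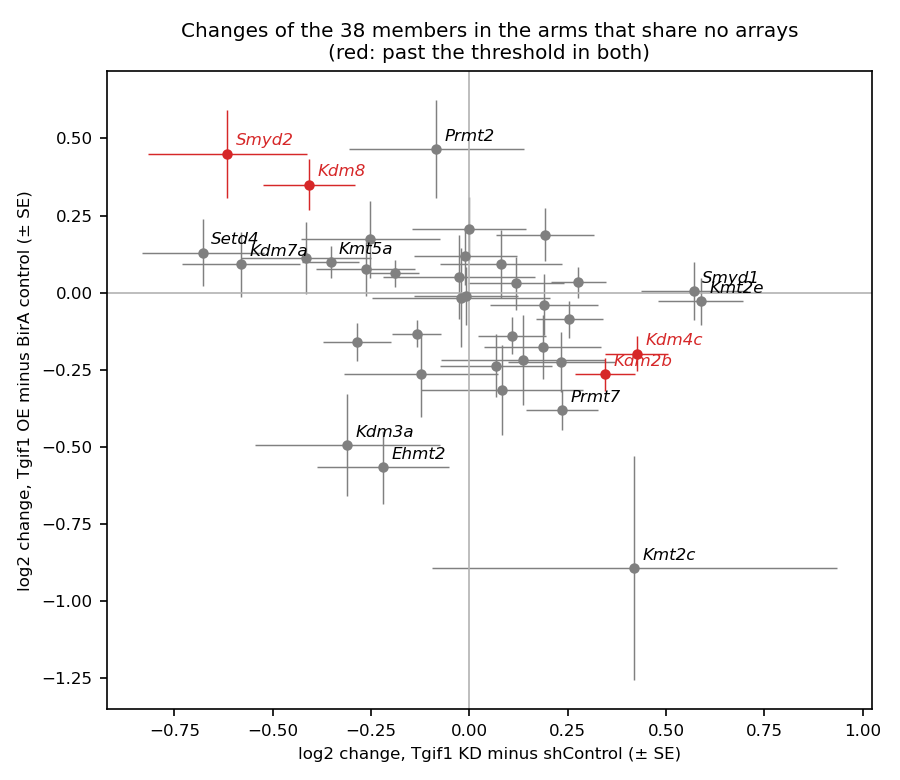
Log2 change ± SE of the 38 members on Tgif1 knockdown (x axis) against that on the arrays labelled Tgif1 OE (y axis). The 4 members in red passed in both comparisons, Smyd2 and Kdm8 at upper left and Kdm4c and Kdm2b at lower right; Kmt2c, at 0.42 and -0.89, has the widest error bars.

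On the arrays labelled Tgif2 OE, 14 of the 38 members passed against BirA control, 9 higher and 5 lower, or 36.8% beside 35.4% of all genes (28.7% higher and 6.69% lower). All genes were shifted here by a median of 0.12, because the deposited columns of this group lie higher, so each change is given as deposited and, after it, relative to that median. After quantile normalization the members split into 4 higher and 8 lower: Kdm5a, Kmt5a, Nsd1, Prmt1 and Suv39h2 no longer passed, and Ehmt2 (-0.40, adjusted p = 0.0137), Kdm1a (-0.17, adjusted p = 0.00893) and Kdm5c (-0.30, adjusted p = 0.0273) did. Removing each column's median gave the same 12 genes. Of all genes, 26.9% passed after quantile normalization and 26.4% with column medians removed. Groups did not overlap for 13 members, beside 32.6% of all genes. The BirA control arrays are the same as in the Tgif1 comparison.

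Smyd2 read 9.99, 9.92, 10.33 and 10.40 on the arrays labelled Tgif2 OE, above all 4 controls given before. It rose by 0.75 ± 0.14 (relative 0.63, adjusted p = 9.51e-04), with 0.83 in the first pair of replicates and 0.67 in the second. Kdm8 read 6.70, 6.75, 6.74 and 6.65, all above the controls, a rise of 0.55 ± 0.08 (relative 0.43, adjusted p = 1.52e-04). These were the 2 calls of this comparison that held under all 20 alternatives. Prmt2 read 8.28, 8.25, 8.69 and 8.88, also above every control, and rose by 0.72 ± 0.16 (relative 0.60, adjusted p = 0.00262). Its other probe set differed by 0.87.

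Setd7, which monomethylates H3K4 and non-histone proteins, read 3.92, 3.88, 4.11 and 4.18 on BirA control and 4.63, 4.32, 4.44 and 4.35 on the arrays labelled Tgif2 OE (0.41 ± 0.09, relative 0.29, adjusted p = 0.0022). The groups did not overlap, but all values lay under the limit of 5.37 given for dim genes. Kdm4b, an H3K9 demethylase, had the largest fall. It read 6.70, 6.67, 6.43 and 6.33 on control and 6.18, 6.16, 5.85 and 6.25 on the arrays labelled Tgif2 OE, below every control (-0.42 ± 0.10, relative -0.54, adjusted p = 0.00605). Kmt5c read 8.37, 8.37, 8.36 and 8.40 on control and 8.19, 8.30, 7.63 and 7.78 on the arrays labelled Tgif2 OE (-0.40 ± 0.15, relative -0.52, adjusted p = 0.0442). The change was -0.13 within replicates 1 and 2 and -0.68 within replicates 3 and 4.

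Of the other calls, Kdm4c fell by 0.21 (relative -0.33), Prmt7 by 0.19 (relative -0.30) and Setd6, with overlap, by 0.28 (relative -0.40). The H3K36 writer Nsd1, with overlap, rose by 0.38 (relative 0.26) and the H3K4 demethylase Kdm5a by 0.27 (relative 0.15). Suv39h2 rose by 0.23 as deposited (relative 0.11). Kmt5a (0.16, relative 0.04) and Prmt1 (0.14, relative 0.02) rose as deposited by little more than all genes together. The dimmer probe set of Prmt7 differed by 0.04, against the call. In all, 5 members passed in the same direction under both overexpression labels, Kdm4c, Kdm8, Prmt2, Prmt7 and Smyd2, in comparisons that share their control arrays. The share of all genes that did so was not counted, so no excess among the members can be read from this. With the block, 21 members passed, 15 higher and 6 lower, where 44.8% of all genes passed. Kmt2a (0.25, relative 0.13, adjusted p = 0.0106) and Ehmt2 (-0.29, relative -0.41, adjusted p = 0.00778) were among the members added.

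Without single arrays, 10 to 14 members were called on the arrays labelled Tgif2 OE, beside 30.3% to 34% of all genes. Kmt5c missed the threshold without any 1 of the BirA control arrays or without replicate 3 or 4 labelled Tgif2 OE (adjusted p 0.0690 to 0.139), and Setd6 without BirA control replicate 1, 2 or 4 or replicate 3 or 4 labelled Tgif2 OE (0.0602 to 0.123). Prmt7 missed it without BirA control replicate 1, 3 or 4 or replicate 1 or 3 labelled Tgif2 OE (0.0571 to 0.118), and Kdm5a without BirA control replicate 1, 3 or 4 or replicate 1, 2 or 4 labelled Tgif2 OE (0.0566 to 0.106). Kmt5a missed it without BirA control replicate 3 or 4 (0.0610 and 0.0661), and Nsd1 and Prmt1 without replicate 4 labelled Tgif2 OE (0.0511 and 0.0518).

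Set directly against each other, the arrays labelled Tgif1 OE were lower than those labelled Tgif2 OE for 6 members and higher for 0, beside 17.4% and 2.25% of all genes (15.8% of members and 19.7% of all genes in all). The median change of all genes was -0.10 here. Kdm2b read 9.46, 9.36, 9.50 and 9.46 on the arrays labelled Tgif1 OE and 9.78, 9.78, 9.78 and 9.72 on those labelled Tgif2 OE, with no overlap (-0.32 ± 0.06, relative -0.22, adjusted p = 0.00139). It passed also after quantile normalization (-0.18, adjusted p = 0.0397) and with column medians removed (-0.22, adjusted p = 0.0246). The other 5 did not: Kdm5a (-0.31, relative -0.21), Kdm3b (-0.24, relative -0.14), Setd3 (-0.23, relative -0.13), which methylates a histidine of actin, Suv39h2 (-0.20, relative -0.10) and Prmt7 (-0.20, relative -0.09). After quantile normalization 2 members passed (9.97% of all genes), Kdm2b and, higher on the arrays labelled Tgif1 OE, Kdm4b (0.36, adjusted p = 0.0432).

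On single arrays, Kdm5a read 9.75, 9.62, 9.31 and 9.28 on the arrays labelled Tgif1 OE and 9.91, 9.81, 9.70 and 9.79 on those labelled Tgif2 OE, with overlap. Kdm3b read 9.77, 9.63, 9.60 and 9.58 against 9.92, 9.97, 9.81 and 9.84, with no overlap. Setd3 read 8.82, 8.84, 8.96 and 8.97 against 9.03, 9.06, 9.24 and 9.19, also apart. Of these 3, Kdm3b and Setd3 thus had separate groups. Suv39h2 read 9.27, 9.26, 9.24 and 9.27 against 9.44, 9.43, 9.44 and 9.51, with no overlap. Prmt7 read 9.45, 9.54, 9.34 and 9.56 on the arrays labelled Tgif2 OE and, with overlap, the values given before on those labelled Tgif1 OE. Groups did not overlap for 8 members, beside 24.3% of all genes. With the replicate number as a block 17 members passed, 1 higher and 16 lower, where 29.8% of all genes passed, and Prmt7 did not (adjusted p = 0.0542). Among those added was Kmt2c at -0.80 (relative -0.69; adjusted p = 0.135 without and 1.64e-04 with the block), which also passed within replicates 1 and 2 (-0.72) and within replicates 3 and 4 (-0.87). Smyd2 was lower by 0.30 on the arrays labelled Tgif1 OE (relative -0.20), which did not pass without the block (adjusted p = 0.148) and did with it (adjusted p = 0.0121). The gap was -0.19 within replicates 1 and 2 (adjusted p = 0.0531) and -0.42 within replicates 3 and 4 (adjusted p = 0.00298). With each pair averaged and the pair as a block, Smyd2 did not pass between these labels. The 5 members that did, beside 9.42% of all genes, were Kdm2b, Kdm3a, Kdm5a, Kmt2a and Kmt2c. Kdm5a missed the threshold without replicate 3 or 4 labelled Tgif1 OE or replicate 1, 2 or 4 labelled Tgif2 OE (0.0628 to 0.113), and Prmt7 without replicate 2, 3 or 4 labelled Tgif1 OE or replicate 1, 2 or 4 labelled Tgif2 OE (0.0521 to 0.128).

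In the 3 comparisons with controls, 25.4%, 20.9% and 35.4% of all genes passed in turn, and the share passing at least 1 was not counted. Of the members, 24 passed at least 1 and 14 passed none. Those with no call in the fit without the block included Kmt2a, the founding MLL gene (-0.02 on knockdown, -0.02 under the Tgif1 OE label and 0.25 under the Tgif2 OE label), Kdm6a (-0.03, 0.05 and -0.05), Kdm5b (0.14, -0.22 and 0.02) and Prmt5 (-0.12, -0.27 and 0.02). Their SE in that fit ran from 0.14 to 0.23. With the replicate number as a block, Kdm5b and Prmt5 passed under the Tgif1 OE label and Kmt2a under the Tgif2 OE label, with the adjusted p given before, and Kdm6a did not pass. Kdm5d, the Y-linked H3K4 demethylase, averaged 3.19, where the lowest value in the files was 2.19.

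For 20 members more than 1 probe set was read. On knockdown, the 9 other probe sets of 6 called members had the sign of the one used, and so had the 4 of 4 called members on the arrays labelled Tgif1 OE and the 2 of 2 called members between the overexpression labels. On the arrays labelled Tgif2 OE, 4 of 5 had the same sign, with Prmt7 the exception. For the difference of the Tgif1 effects 6 of 8 had it: the other probe set of Prmt7 gave -0.15 where the one used gave 0.62, and 1 of the 2 others of Smyd1 gave -0.07 where the one used gave 0.57. Kmt5b, an H4K20 dimethylase, differed between probe sets on knockdown: the one used gave 0.00 and the other 3 gave 0.80, 0.21 and -0.11. Kdm5b gave 0.14 and -0.38. Prmt3 gave 0.23 on its brightest probe set and 0.63 on another on knockdown, and -0.22 and -0.89 on the arrays labelled Tgif1 OE. Which transcripts each probe set reads was not examined.

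Genes listed as working with these enzymes were taken from 8 lists, and counts are given for some lists and comparisons only. Their background is the share of all genes called in each direction, given above: 12.5% higher and 12.9% lower on knockdown, 11.4% and 9.51% on the arrays labelled Tgif1 OE, and 28.7% and 6.69% on those labelled Tgif2 OE. The lists were also chosen with earlier results of these data known, and they were not tested as sets. On knockdown the largest change among them was a fall of Rcor1, the CoREST scaffold that couples Kdm1a to deacetylases, by 1.09 ± 0.11 (adjusted p = 4.07e-06); it was the only 1 of 8 measured LSD1 and CoREST partners called, while Kdm1a itself differed by -0.13 ± 0.06 (adjusted p = 0.138). Prdm1, a SET-related repressor that acts in the germline and in B cells, rose by 1.06 ± 0.25 on knockdown (adjusted p = 0.00513). It fell by 1.40 ± 0.18 on the arrays labelled Tgif1 OE (adjusted p = 5.32e-05) and by 0.48 ± 0.18 on those labelled Tgif2 OE (relative -0.60, adjusted p = 0.0438). In that list of 16 measured enzymes outside the symbol rule, Phf2, a JmjC protein, also rose on knockdown (0.52) and Ezh2, the H3K27 writer, fell (-0.24). Of 7 partners of Prmt5 and Prmt1, 2 rose and 2 fell on knockdown: Btg2 and Btg1, which bind Prmt1, rose by 1.08 and 0.66, and Coprs, a Prmt5 adaptor, fell by 0.55. Zfp644, a partner of Ehmt2 that brings it to DNA, fell by 0.69 on knockdown and rose by 0.32 on the arrays labelled Tgif1 OE, and in that list of 12 H3K9 partners and readers 0 rose and 3 fell on knockdown, and 1 rose and 2 fell on the arrays labelled Tgif1 OE, Atf7ip (-0.41) and Daxx (-0.30).

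Of 12 measured subunits of the H3K4 complexes, 2 rose and 0 fell on the arrays labelled Tgif2 OE. On knockdown 1 rose and 1 fell, and 0 rose and 3 fell on the arrays labelled Tgif1 OE. Ash2l, a core subunit, rose by 0.45 on knockdown and fell by 0.26 on the arrays labelled Tgif1 OE, and Wdr5, another, fell there by 0.40. A further list, set up for the H3K79 writer Dot1l, itself not measured, holds Mllt, Aff, Eaf and Ell genes. Whether these act with Dot1l was not examined. Of its 7 measured genes, 4 fell on the arrays labelled Tgif1 OE with 0 rising, where 9.51% of all genes fell. Aff1 (-0.56), Aff4 (-0.43) and Mllt10 (-0.35) led, at a list median of -0.34 beside 0.01 for all genes. On knockdown 3 of the 7 rose, Mllt3 (0.62), Aff1 (0.44) and Mllt10 (0.41), and Aff4 fell (-0.66). On the arrays labelled Tgif2 OE 3 fell and 0 rose, led by Ell (-0.47, relative -0.59).

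Among the enzymes of cofactor supply, 3 of 8 genes around 2-oxoglutarate rose and 1 fell on knockdown, and 0 rose and 3 fell on the arrays labelled Tgif1 OE; the other 4 and 5 did not pass. Idh2, the mitochondrial isocitrate dehydrogenase that makes 2-oxoglutarate, rose by 0.61 ± 0.10 (adjusted p = 3.52e-04) and fell by 0.67 ± 0.07 (adjusted p = 1.19e-05) in turn. Got1, an aspartate aminotransferase, did likewise at 0.51 and -0.53. Psat1, the phosphoserine aminotransferase, fell by 0.53 on the arrays labelled Tgif1 OE and by 0.63 on those labelled Tgif2 OE (relative -0.75), where 1 of the 8 rose and 2 fell. In this list the difference between the knockdown effect and that of the arrays labelled Tgif1 OE passed for 6 of 8 genes, 5 positive and 1 negative (13% and 14.6% of all genes), at a median of 0.49 beside -0.06 for all genes. Of 9 genes of S-adenosylmethionine supply, Shmt1, a serine hydroxymethyltransferase, fell on knockdown by 0.55 and Ahcy, which clears S-adenosylhomocysteine, by 0.33, and Ahcyl1 rose, while 6 did not pass. On the arrays labelled Tgif1 OE, Mat2b, a regulatory subunit of methionine adenosyltransferase, fell by 0.47, Ahcyl1 rose by 0.20 and 7 did not pass. On those labelled Tgif2 OE, 3 of the 9 rose and 0 fell.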

How the data were processed

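Affymetrix Mouse 430A 2.0 arrays of 16 samples were used. The authors deposited 1 log2 intensity per probe set and array, which the submitters' processing notes say came from RMA; they also name limma for the samples labelled Tgif2 OE. No version or genome build is given in the sources used here. They ran from 2.19 to 14.79. Of 22690 probe sets, 20380 had 1 symbol in the platform annotation, 691 several and 1555 none, and 64 were controls. RMA scales arrays to 1 distribution, yet the columns labelled Tgif2 OE had medians 0.085 above the others, so changes there are also given relative to the median gene. The number of arrays, 2 or 4 a group, limits the precision.

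From these, 1 probe set per gene (highest mean) was kept, and limma 3.58.1 in R 4.3.3 fitted a mean per group over all 16 arrays and 12393 genes, with moderated two-sided tests and Benjamini-Hochberg adjustment over all genes; the threshold was 0.05. Values after ± are SE. The fit was tested on simulated data whose arrays were independent of each other. That simulation therefore cannot show how the fit behaves with the replicate pairs of the overexpression arm. Members and lists were chosen with earlier results of these data known. Named were, per comparison, called members up to 8 per direction by size, with array values for up to 6. Also named were up to 3 called genes per partner list, and members called in the knockdown and in an overexpression comparison. A fixed set of 16 members was named whether called or not. Members named beyond this, such as Kmt2c, Kmt5b and Kdm5c, and all markers named singly, such as Esrrb and Nanog, were chosen after their values were seen.

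Replicate numbers in the labels are shared across groups. In the overexpression arm the deviations of same-numbered samples correlated at 0.32 to 0.56 in 12 of 12 pairs of samples. A sample correlated best with its own number in 3 of 12. Over all samples of the same replicate pair, the mean correlation of BirA control was 0.37 with Tgif1 OE and 0.4 with Tgif2 OE. Between the overexpression labels it was 0.53. The number was thus not shown to match samples beyond these pairs. The fit with the replicate number as a block is given beside results it changes. In the knockdown arm the correlation was 0.00. Alternatives covered scaling, probe set choice, a filter on dim genes, the prior variance, the arrays fitted, blocks and single arrays left out.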

Additional observations from a re-analysis of the deposited data

Results flagged for a closer look

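In 114 combinations of a member with a group of 4 arrays, 5 had 1 array far from the other 3 by Dixon's test, which chance does in about 1 of 20. Kdm1a on BirA control replicate 4 read 11.93, where the others read 11.83 to 11.85; without it the call of Kdm1a on the arrays labelled Tgif1 OE was lost (adjusted p = 0.120). Kdm2b on replicate 4 labelled Tgif2 OE read 9.72 against 9.78 on the others. Kdm4c on replicate 3 labelled Tgif2 OE read 8.46 against 8.36 to 8.38. Nsd1 on BirA control replicate 1 read 4.28 against 3.95 to 3.99. Suv39h2 on replicate 4 labelled Tgif2 OE read 9.51 against 9.43 to 9.44.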

How the results depend on the processing

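Of 3590 combinations of a member and comparison with an alternative, 3190 kept direction and side of the threshold, 240 lost a call, 159 gained one and 1 reversed: Kmt5b on knockdown, 0.00 as reported, was 0.23 (adjusted p = 0.0177) as the mean of its probe sets. The cause of the changes below was not tested. Counts of members called, with single arrays left out, ran from 4 to 8 on the arrays labelled Tgif1 OE (9 reported). Of all genes, 16.6% to 19.1% passed there. The counts ran from 10 to 14 on those labelled Tgif2 OE (14), beside 30.3% to 34% of all genes. Between these labels they ran from 4 to 8 (6), beside 14% to 17.1%. For the difference of the Tgif1 effects (13) they ran from 12 to 14 without single overexpression-arm arrays, beside 25.6% to 27.5%. On knockdown (13), and for that difference without a knockdown-arm array, 1 array was left in a group. Fewer members and a smaller share of all genes then passed. The replicate block gave 18 on knockdown, where the numbers do not pair the samples, beside 34.2% of all genes. It gave 16, 21, 17 and 20 in the other comparisons, in this order, beside 28.6%, 44.8%, 29.8% and 36.3% of all genes. Apart from Prmt7 between the labels, it ended no call. Fitting the compared groups alone gave 17 calls on knockdown (6 gained, among them Kmt2c, and Kdm3b and Prmt1 lost), 5 on the arrays labelled Tgif1 OE, 9 on those labelled Tgif2 OE, 3 between them and 14 for the difference of the Tgif1 effects. The shares of all genes in these fits were, in this order, 34.6%, 17.1%, 29.3%, 13.7% and 27.7%. A random block for replicates 1-2 and 3-4 (consensus correlation 0.554) left 3, 6 and 1, beside 11.5%, 20.1% and 4.75% of all genes. Averaging each pair to 1 value left 1, 3 and 0 in limma, beside 6.47%, 13.7% and 0.96% of all genes. For the last, 7 members had an unadjusted p under 0.05, a level at which the share of all genes was not counted. With the pair as a block beside averaging, an alternative added after seeing the data, 8, 14 and 5 passed, where 16.3%, 29.2% and 9.42% of all genes did. Replicates 1 and 2 alone gave 15 on the arrays labelled Tgif1 OE and 20 for the difference of effects, and replicates 3 and 4 alone 13 between the labels and 21 for the difference. The shares of all genes were, in this order, 26.2%, 39.1%, 19.4% and 37.7%. Between the labels, quantile normalization left 2 calls and removal of column medians 1, beside 9.97% and 9.33% of all genes. Over all genes, averaging left 802, 1699 and 119 calls of 2587, 4388 and 2439. Dim probe sets (Kdm5d, Kdm7a, Nsd1 and Setd7) limit what their values can show.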
